A study of Mus musculus and Homo sapiens with 20 samples.

Results

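The 52 genes described here act in ribosome biogenesis or belong to RNA polymerase I, and they were followed in 3 cell lines after inhibition of the chaperone HSP90. They were found in the count tables by gene symbol, ignoring case, from a list of names, and all 52 were found and tested in every line, out of 83734 distinct symbols. The HSP90i samples were treated for 16 h with NVP-AUY922, a small molecule that blocks the ATP pocket of HSP90, and the Control samples of the same line received the solvent DMSO according to the column names of the count tables. K562, a human chronic myeloid leukaemia line, received 300 nM. MEF, mouse embryonic fibroblasts, received 200 nM, and HPC-7, a mouse blood progenitor line, received 50 nM. No other agent or engineered allele is named in the labels for any group. Each line had 3 HSP90i and 3 Control RNA-seq libraries. Line, species and dose changed together, so they cannot be told apart.

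Ribosomes are assembled in the nucleolus. RNA polymerase I transcribes the long precursor of the ribosomal RNAs, small nucleolar ribonucleoproteins (snoRNPs) guide its methylation and pseudouridylation, and processing factors cut and fold it into the 40S and 60S subunits. Growing cells spend much of their transcription on this pathway, and many of its genes are known targets of the transcription factor MYC.

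The libraries held between 7936066 and 10950573 counts for K562, between 10542305 and 22872539 for MEF and between 10131491 and 16859394 for HPC-7, and member genes had at least 25 counts in every K562 and MEF library and at least 54 in every HPC-7 library. All 8 markers listed for each line were above 1 CPM in that line. Some passed this level in other lines too: 7 of the 8 HPC-7 markers in K562 and 4 in MEF, and 2 of the 8 MEF markers in HPC-7. HSPA8, the constitutive HSP70 gene, checks the treatment and rose in every line, on the log2 scale by 3.91 ± 0.13 for K562, 2.52 ± 0.067 for MEF and 1.60 ± 0.077 for HPC-7 (edgeR, SE). In K562, Control library 1 stood apart. It was the highest of the Control libraries for 34 of the 52 members and the lowest for 16, cytosolic ribosomal protein genes took 8.14% of its counts against 5.42% and 4.85% in the other Control libraries, and its correlation with them was 0.970 and 0.954, against 0.990 between the other two (log2 CPM, across genes). In HPC-7, HSP90i library 2 was the highest treated library for 48 of 52 members. In MEF, Control library 3 was low for several members, including Npm1 and Ncl. Counts and medians over the members are given with and without these libraries. So are changes that moved by over 0.2 on the log2 scale without them, for members shown by library in that line.

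Levels are given in CPM, with library sizes adjusted by TMM factors, so they are relative to the rest of each library. A change in the total RNA of a cell would not be seen in them, and fewer cells of a kind cannot be told apart from less RNA per cell. Changes are given as log2 fold change (HSP90i over Control) ± SE, the standard error of the fit, with n = 3 libraries per group. A gene is called lower or higher when its p in the quasi-likelihood test of edgeR, adjusted by Benjamini-Hochberg over all genes tested in the line, is under 0.05.

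The members were lower in HSP90i cells as a body, deeply so in both mouse lines and less in K562. Their summed share of all counts was 0.563%, 0.589% and 0.571% in K562 HSP90i libraries, against 0.718%, 0.717% and 0.733% in Control. In MEF it was 0.444%, 0.401% and 0.455% in HSP90i libraries and 0.818%, 0.826% and 0.715% in Control. HPC-7 showed the widest gap, with 0.387%, 0.481% and 0.390% in HSP90i libraries and 0.955%, 0.906% and 0.910% in Control. The groups did not overlap in any line. These shares are a description and were not tested.

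In K562, 13 members were called lower and 0 higher, against a background of 5.97% of all 13456 genes tested called lower and 5.11% higher. At an unadjusted p under 0.05 the members numbered 28 lower and 0 higher, DESeq2 called 20 lower and 0 higher, and limma-voom 36 lower and 0 higher. In MEF, 49 were called lower and 1 higher, against 38.2% and 35.1% of 12340 genes. In HPC-7, all 52 were called lower and 0 higher, by edgeR, DESeq2, limma-voom and at an unadjusted p under 0.05 alike, against 36.6% lower and 36.5% higher of 11703 genes. Changes of at least 2-fold downward were called for 5 members in K562 (background 3.11%), 39 in MEF (13.1%) and 39 in HPC-7 (13.7%). The members' median log2 fold change was −0.41 for K562 cells, −1.31 for MEF cells and −1.39 for HPC-7 cells, equal to 75.3%, 40.4% and 38.1% of Control. The median over all genes tested was −0.022, −0.015 and −0.0024, and 18.4%, 8.76% and 7.94% of all genes lay below the member median.

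**Figure D1:**
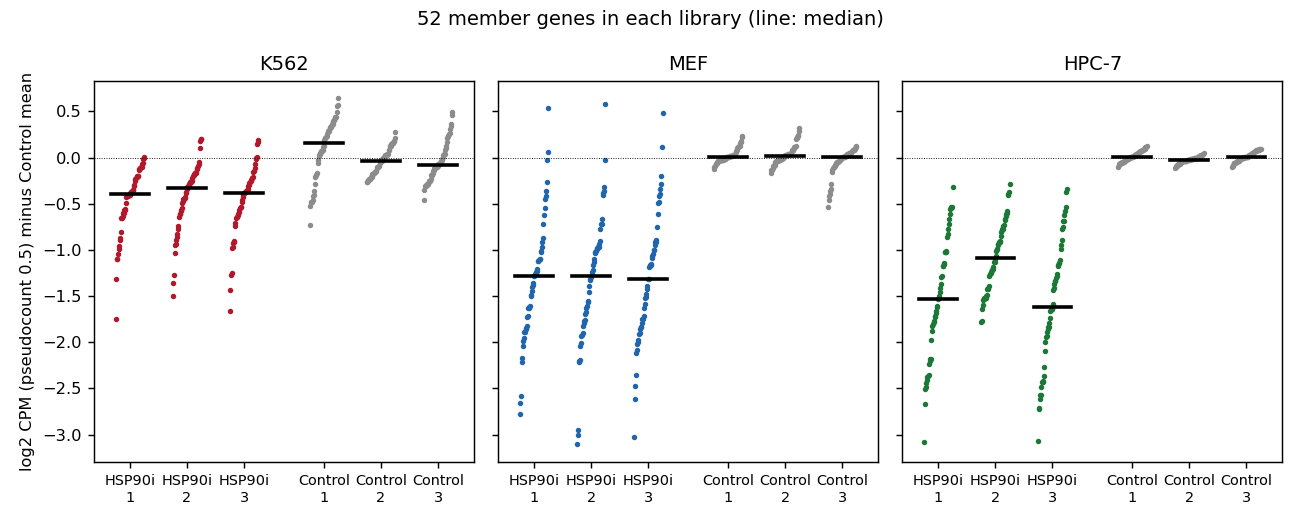
Log2 CPM (pseudocount 0.5) of each of the 52 member genes in each library, minus the gene's mean over the Control libraries of its line. Points are genes sorted by value and black lines are medians; treated libraries are on the left of each panel. The HPC-7 HSP90i medians were −1.53, −1.09 and −1.62, with library 2 the highest, while the points of K562 Control library 1 are the most widely spread of the Control libraries.

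All HSP90i libraries lay below all Control libraries for 32 members in K562, where 17.8% of all genes tested did so, for 48 in MEF (39.3%) and for 52 in HPC-7 (38.9%). The 1 member with all HSP90i libraries above all Control libraries was Polr1c in MEF (background 37.0%). Across the lines, 13 members were called lower in all 3, 36 in 2 and 3 in 1, while 136 of 8322 genes tested in all lines (1.63%) were called lower in all 3 and 1.91% higher in all 3. The deepest change of a member was in HPC-7 for 26 genes, in MEF for 25 and in K562 for 1, PPAN.

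The K562 count depended on single libraries. Without Control library 1, 30 members were called lower in K562 and the median was −0.30. Without HSP90i library 1, 2 or 3 the count was 2, 3 or 6. Without HSP90i library 2, all 52 were still called lower in HPC-7 and the median was −1.55. Without Control library 3, 50 were called lower in MEF and the median was −1.31.

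**Figure D2:**
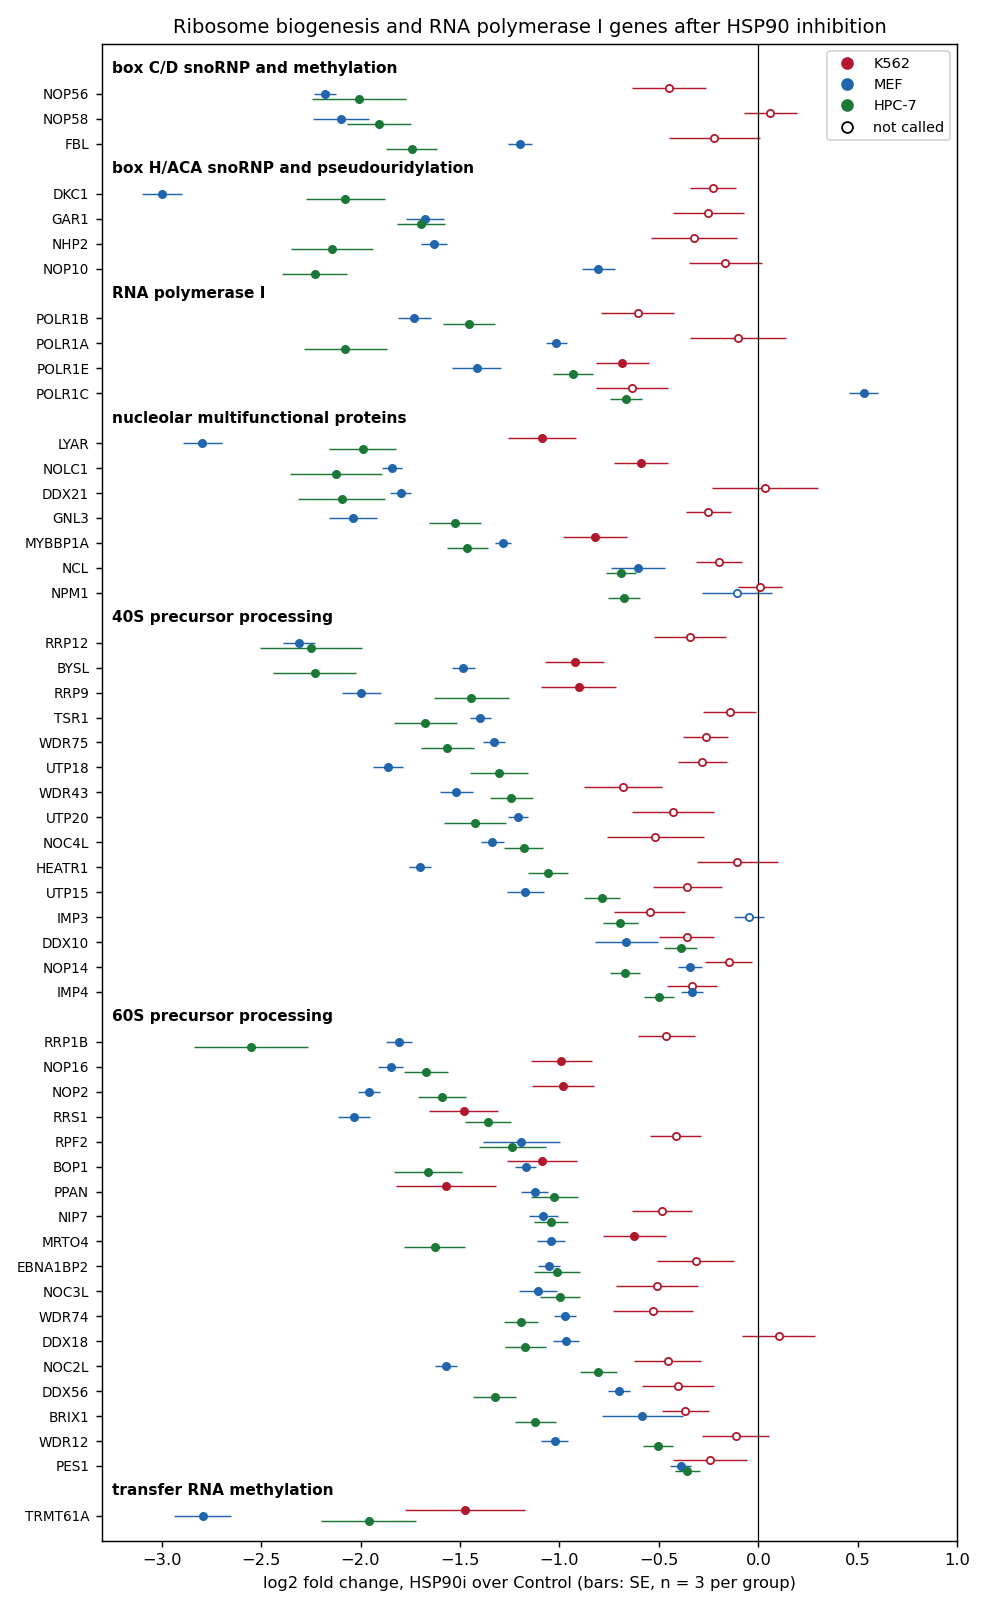
Log2 fold change of HSP90i over Control (x axis) for each member gene, grouped by role, in K562 (red), MEF (blue) and HPC-7 (green). Bars are SE with n = 3 libraries per group, filled points passed the test and open points did not. The quartile range of the members lies between −0.63 and −0.24 in K562, where most points are open, between −1.82 and −1.01 in MEF and between −1.78 and −1.01 in HPC-7.

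The box C/D snoRNP proteins carry the 2′-O-methylation of ribosomal RNA: NOP56 and NOP58 are the scaffold and FBL (fibrillarin) the methyltransferase. All 3 were called lower in both mouse lines and none in K562. NOP56 had 63.1, 63.5 and 69.2 CPM in MEF HSP90i libraries against 283, 299 and 304 CPM in Control (−2.18 ± 0.056). In HPC-7 it had 78.3, 152 and 71.8 CPM in HSP90i libraries against 396, 412 and 401 CPM in Control (−2.01 ± 0.23). The treated cells kept 22.1% of the Control level in MEF and 24.9% in HPC-7, where HSP90i library 2 was the highest treated library, and without it the HPC-7 value was −2.43. In K562, NOP56 had 227, 214 and 210.1 CPM in HSP90i libraries and 389.8, 247 and 254 CPM in Control, the groups did not overlap, and the change did not pass the test (adjusted p = 0.16). Control library 1 was far above the other Control libraries, and without it the value was −0.20. FBL had 58, 79.8 and 55.4 CPM in HPC-7 HSP90i libraries and 206, 212 and 228 CPM in Control, and 48.2, 52.6 and 50.7 CPM in MEF HSP90i libraries and 117, 109 and 121 CPM in Control. Its change was −1.74 ± 0.13 in HPC-7 and −1.20 ± 0.059 in MEF. In K562, FBL had 275, 277 and 250 CPM in HSP90i libraries and 444, 249.9 and 242 CPM in Control. Those groups overlapped: Control libraries 2 and 3 were below the treated ones, and without Control library 1 the value was 0.12. NOP58 had 354, 408 and 352 CPM in K562 HSP90i libraries and 404, 334 and 331 CPM in Control, among the 3 highest member values of that line (0.06 ± 0.13, not called), against −2.10 ± 0.14 in MEF and −1.91 ± 0.16 in HPC-7. Without HSP90i library 2 the HPC-7 value of Nop58 was −2.17.

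The box H/ACA snoRNP proteins convert uridines of ribosomal RNA to pseudouridine; DKC1 (dyskerin) is the enzyme, and NHP2, NOP10 and GAR1 are its partners, all of them also parts of telomerase. All 4 were called lower in MEF (38.2% of all genes tested) and HPC-7 (36.6%), and none in K562 (5.97%). Dkc1 was the member with the deepest fall in MEF, with 14.3, 11.2 and 11.9 CPM in HSP90i libraries against 108, 103 and 91.9 CPM in Control (−3.00 ± 0.10, adjusted p = 4.34e-08). In HPC-7 it had 38.2, 67.5 and 36.5 CPM in HSP90i libraries against 216, 189 and 191 CPM in Control (−2.08 ± 0.20). Without HSP90i library 2 the HPC-7 value was −2.42. The MEF treated libraries kept 12.5% of the Control level and the HPC-7 ones 23.7%. In K562, DKC1 had 158, 160.1 and 145 CPM in HSP90i libraries and 185, 185 and 172 CPM in Control (−0.23 ± 0.12, adjusted p = 0.253). The K562 groups did not overlap but the gap was small. Nop10 had the largest difference between the mouse lines among the members. It had 21.8, 33.2 and 19 CPM in HPC-7 HSP90i libraries and 116, 116 and 114 CPM in Control, and 27.2, 26.5 and 32.7 CPM in MEF HSP90i libraries and 50.8, 49.4 and 50.2 CPM in Control. Nop10 and its partners kept 21.3% to 30.9% of the Control level in HPC-7. Without HSP90i library 2, Nop10 in HPC-7 was at −2.50. In K562 the other 3 partners lay between −0.32 and −0.17, none called.

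RNA polymerase I was represented by 4 subunits. POLR1A and POLR1B form the catalytic core, POLR1E belongs to RNA polymerase I alone, and POLR1C is shared with RNA polymerase III. POLR1A had 20.1, 38.02 and 19.8 CPM in HPC-7 HSP90i libraries against 106, 106 and 114 CPM in Control (−2.08 ± 0.21). In MEF it had 83.5, 82.2 and 76.8 CPM in HSP90i libraries against 160.1, 161 and 170.3 CPM in Control (−1.02 ± 0.053). Without HSP90i library 2 the HPC-7 value was −2.45. The largest subunit fell further in HPC-7 than in MEF (difference −1.18 ± 0.24, adjusted p = 0.000999). In K562, POLR1A had 71.9, 62.5 and 82.96 CPM in HSP90i libraries and 51.95, 76.1 and 106 CPM in Control, with overlapping groups and a 2-fold range among the Control libraries (−0.10 ± 0.24, not called). Without Control library 1 it was −0.32 and not called. POLR1B had 16.7, 14.9 and 15.1 CPM in MEF HSP90i libraries against 50.9, 48.5 and 56.6 CPM in Control (−1.73 ± 0.082). In HPC-7, Polr1b had 42.2, 56.04 and 36.7 CPM in HSP90i libraries against 123, 122 and 125 CPM in Control (−1.46 ± 0.13). In K562, POLR1B had 29.4, 29.3 and 29.4 CPM in HSP90i libraries, nearly the same in each, and 32.9, 49.8 and 51.5 CPM in Control (−0.61 ± 0.18, adjusted p = 0.0688). Control library 1 was the lowest Control library there, and without it POLR1B was called lower (−0.78).

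Polr1c was the only member called higher in any line. In MEF it had 87.8, 90.9 and 85.1 CPM in HSP90i libraries against 66.3, 55.03 and 60.97 CPM in Control (0.53 ± 0.072, adjusted p = 0.000179), and the groups did not overlap. In HPC-7 it had 39.7, 37.7 and 37.6 CPM in HSP90i libraries against 63.6, 56.2 and 62.9 CPM in Control (−0.67 ± 0.081, adjusted p = 3.83e-05). The same gene was therefore called in opposite directions in the 2 mouse lines, while in K562 its value did not pass the test (−0.64 ± 0.18, adjusted p = 0.0564). POLR1E was called lower in all 3 lines, with 13.9, 12.6 and 13.5 CPM in K562 HSP90i libraries against 20.96, 21.5 and 21.9 CPM in Control (−0.68 ± 0.13, adjusted p = 0.0157). Its values were −1.41 ± 0.12 in MEF and −0.93 ± 0.10 in HPC-7. The K562 call for POLR1E is 1 of the 11 that were lost when a single library was left out.

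**Figure D3:**
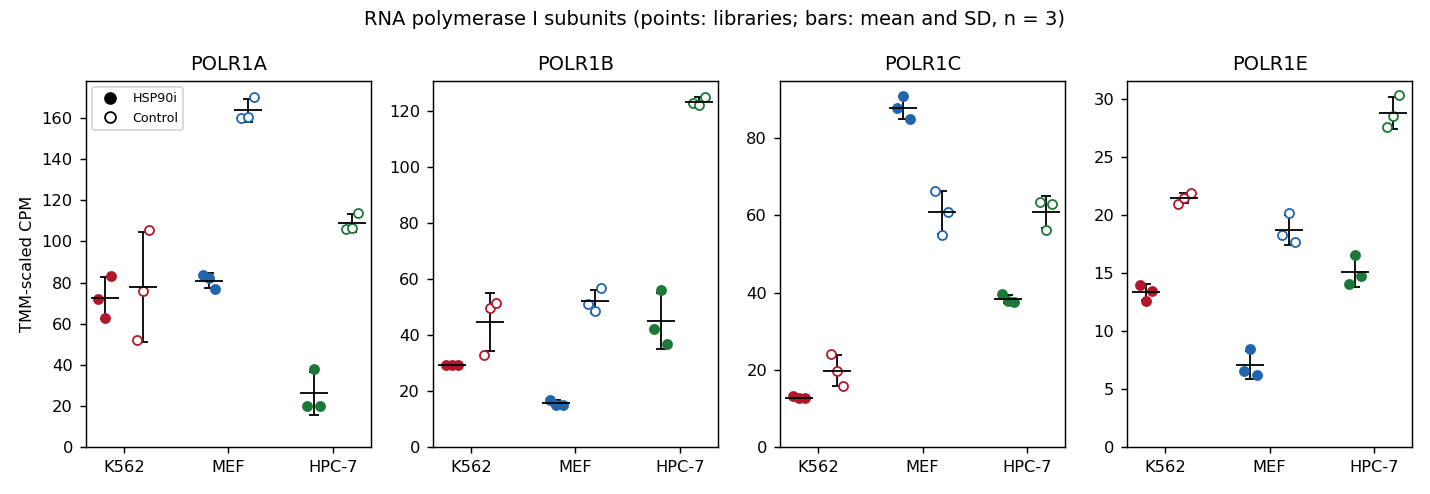
TMM-scaled CPM of 4 RNA polymerase I subunits in each library, HSP90i (filled) left of Control (open) in each line, with bars at the mean and SD (n = 3). POLR1C is higher in MEF HSP90i libraries (85.1 to 90.9 CPM) than in MEF Control libraries (at most 66.4 CPM) and lower in HPC-7 HSP90i than in HPC-7 Control libraries.

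The multifunctional nucleolar proteins include NCL (nucleolin) and NPM1 (nucleophosmin), the growth-linked GTPase GNL3 (nucleostemin), the helicase DDX21, the snoRNP chaperone NOLC1, and LYAR and MYBBP1A. Lower calls went to 3 of the 7 for K562 (5.97% of all genes tested), 6 for MEF (38.2%) and 7 for HPC-7 (36.6%). LYAR was among the 3 deepest members in MEF, with 9.04, 7.25 and 9.26 CPM in HSP90i libraries against 59.6, 63.8 and 55.3 CPM in Control (−2.79 ± 0.099). It was also called in HPC-7 (−1.99 ± 0.17, and −2.27 without HSP90i library 2) and K562 (−1.09 ± 0.17). NCL and NPM1 had the shallowest values of the group in both mouse lines. NCL had 762, 679 and 791 CPM in MEF HSP90i libraries and 1244, 1284 and 867 CPM in Control (−0.61 ± 0.14). In HPC-7, Ncl had 768, 798 and 786 CPM in HSP90i libraries and 1367, 1221 and 1209 CPM in Control (−0.69 ± 0.074). Without Control library 3 the MEF value was −0.73. K562 NCL was not called, at 689.7, 701 and 685 CPM in HSP90i libraries and 864, 742 and 774 CPM in Control (−0.20 ± 0.11).

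NPM1 had 966, 1065 and 1068 CPM in HPC-7 HSP90i libraries against 1760, 1560 and 1630 CPM in Control, and was called lower (−0.68 ± 0.078). In MEF it had 1466, 1160 and 1612 CPM in HSP90i libraries and 1677, 1772 and 1119 CPM in Control, with overlapping groups (−0.11 ± 0.17, adjusted p = 0.594). Control library 3 was below every treated library, and without it Npm1 was called lower in MEF (−0.25, adjusted p = 0.0419). In K562, NPM1 had 1002, 1132 and 1037 CPM in HSP90i libraries and 1088, 1010 and 1055 CPM in Control (0.0079 ± 0.11). NPM1 has many processed pseudogenes, so its reads could be shared with near-identical copies. DDX21, a helicase that binds ribosomal RNA precursors, had 590.1, 668 and 663 CPM in K562 HSP90i libraries and 354, 714 and 811 CPM in Control. Control library 1 lay far below the other 5 libraries, so the value was 0.032 ± 0.27 with all libraries, and without that library it turned to −0.25 and was called (adjusted p = 0.0368). In MEF and HPC-7, Ddx21 was called lower, by −1.80 ± 0.053 and −2.10 ± 0.22. Without HSP90i library 2 the HPC-7 value of Ddx21 was −2.49.

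The 40S branch held 15 members, most of them parts of the small subunit processome that forms around the U3 snoRNA. Of these, 2 were called lower in K562 (BYSL and RRP9), 14 in MEF and 15 in HPC-7, with medians of −0.36, −1.34 and −1.24. The shares over all genes tested were 5.97%, 38.2% and 36.6%. HEATR1, a large scaffold of the processome needed for transcription by RNA polymerase I, had 29.3, 28.3 and 26.9 CPM in MEF HSP90i libraries against 92.2, 94.2 and 89.04 CPM in Control (−1.70 ± 0.056). In HPC-7 it had 57.9, 72.2 and 59.1 CPM in HSP90i libraries against 142, 128 and 124 CPM in Control (−1.06 ± 0.099). HEATR1 in K562 had 95.7, 96.7 and 103 CPM in HSP90i libraries and 73.4, 112 and 133 CPM in Control, and was not called with all libraries but was called lower without Control library 1 (−0.31, adjusted p = 0.0249). Rrp12 and Bysl, which act on late precursors of the 40S subunit, were among the 3 deepest members in HPC-7. Rrp12 had 10.5, 23.9 and 10.2 CPM in HPC-7 HSP90i libraries against 68.6, 66.5 and 74.3 CPM in Control (−2.25 ± 0.26). Bysl had 6.91, 12.7 and 6.03 CPM in HPC-7 HSP90i libraries against 37.4, 39.3 and 42.3 CPM in Control (−2.23 ± 0.21). For both, HSP90i library 2 was well above the other treated libraries and still lay below every Control library, and without it the values were −2.75 for Rrp12 and −2.61 for Bysl.

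IMP3, IMP4 and DDX10, which also serve the U3 branch, had shallow values in the mouse lines. Imp3 had 47.5, 44.6 and 39.4 CPM in MEF HSP90i libraries and 45.6, 44.2 and 46.5 CPM in Control (−0.047 ± 0.075, not called). In HPC-7 it had 41.3, 36.1 and 35.3 CPM in HSP90i libraries and 61.5, 57.5 and 63.5 CPM in Control (−0.69 ± 0.088, called lower). The groups overlapped in MEF and not in HPC-7. Imp4, its partner in U3 binding, had 53.3, 58.2 and 53.1 CPM in HPC-7 HSP90i libraries and 75.3, 75.3 and 81.96 CPM in Control (−0.50 ± 0.077). The helicase Ddx10 had 61.6, 73.4 and 70.6 CPM in HPC-7 HSP90i libraries and 92.7, 87.4 and 89.1 CPM in Control (−0.39 ± 0.083). Imp4 and Ddx10, with Pes1, had the 3 smallest falls of HPC-7, and all 3 were called.

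The 60S branch held 18 members. In K562, 6 were called lower (5.97% of all genes tested), and all 18 in MEF (38.2%) and in HPC-7 (36.6%). The medians were −0.47, −1.09 and −1.18. PPAN, a factor of early 60S precursors, was the deepest member in K562, with 2.37, 3.5 and 3.56 CPM in HSP90i libraries against 11.5, 9.06 and 7.29 CPM in Control (−1.57 ± 0.25, adjusted p = 0.00727). It had 33.2, 30 and 29.7 CPM in MEF HSP90i libraries against 64.6, 67.4 and 71.9 CPM in Control, and 54.1, 64.7 and 44.6 CPM in HPC-7 HSP90i libraries against 106, 109.7 and 117 CPM in Control. The falls were −1.13 ± 0.069 in MEF and −1.03 ± 0.12 in HPC-7. PPAN was low in K562, with as few as 25 counts in a library, and in human it overlaps a read-through transcript into P2RY11, which could share reads. RRS1, which helps bring the 5S RNA into the 60S precursor, had 9.95, 8.7 and 9.12 CPM in K562 HSP90i libraries against 29.6, 27 and 20.9 CPM in Control (−1.48 ± 0.17, adjusted p = 0.00185). In MEF, Rrs1 had 15.7, 15.98 and 13.97 CPM in HSP90i libraries against 65.5, 63.8 and 57.5 CPM in Control (−2.03 ± 0.079). In HPC-7 it had 23.9, 28.8 and 20.4 CPM in HSP90i libraries against 63.2, 61.2 and 62.9 CPM in Control (−1.36 ± 0.11). PPAN and RRS1 were the 2 members called lower in K562 in every fit with a library left out, and both were called in both mouse lines.

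BOP1, PES1 and WDR12 form the PeBoW complex of 60S maturation. BOP1 had 4.36, 4.4 and 4.78 CPM in K562 HSP90i libraries against 9.64, 10.4 and 8.61 CPM in Control (−1.09 ± 0.18, called). BOP1 was low there, with as few as 43 counts in a library, and kept its call in 4 of 6 fits with a library left out. In MEF it had 84.1, 76.6 and 81.3 CPM in HSP90i libraries against 185, 177 and 183 CPM in Control (−1.17 ± 0.051). HPC-7 libraries held 26.5, 45.7 and 29.3 CPM of Bop1 in HSP90i and 103, 104 and 113 CPM in Control (−1.66 ± 0.17). Without HSP90i library 2 the HPC-7 value of Bop1 was −1.94. PES1 had shallow values. It had 115, 116 and 121 CPM in MEF HSP90i libraries against 147, 152 and 163 CPM in Control (−0.39 ± 0.054), and 138, 133 and 134 CPM in HPC-7 HSP90i libraries against 171, 172 and 177 CPM in Control (−0.36 ± 0.063). In K562, PES1 had 69.5, 79.1 and 73.8 CPM in HSP90i libraries and 114, 71.9 and 77.9 CPM in Control, with overlapping groups (−0.24 ± 0.18). Without Control library 1 that value was −0.012. WDR12 was called in MEF (−1.02 ± 0.068) and HPC-7 (−0.51 ± 0.074) and not in K562 (−0.11 ± 0.17). The differences between the 3 genes were not tested.

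Rrp1b, a nucleolar partner of 60S precursors, had the deepest fall in HPC-7, with 12.9, 32.8 and 12.97 CPM in HSP90i libraries against 113, 113 and 113 CPM in Control (−2.55 ± 0.29). HSP90i library 2 held more than 2 times the level of the other treated libraries, and without it the value was −3.13. In MEF, Rrp1b was at −1.81 ± 0.067, and in K562 RRP1B was not called (−0.46 ± 0.14). DDX18, a helicase of the 60S branch, had the highest value of all members in K562, with 123, 144 and 142 CPM in HSP90i libraries and 93.7, 139 and 149 CPM in Control (0.10 ± 0.18, not called). Control library 1 was the lowest there too, and without it the sign turned (−0.076, not called). Brix1 in MEF was called lower with overlapping groups (−0.58 ± 0.20, adjusted p = 0.0284). It had 70.5, 56.2 and 73.3 CPM in HSP90i libraries and 113, 120.4 and 66.4 CPM in Control. Its call was lost in DESeq2 (adjusted p = 0.0656), with a replicate block (adjusted p = 0.0796) and on leaving out HSP90i library 1 or 2 or Control library 1 or 2 (adjusted p from 0.0578 to 0.0942), while without Control library 3 the value was −0.76.

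TRMT61A, the catalytic subunit of a methyltransferase of transfer RNAs, acts on transfer RNAs and not on ribosomal RNA. It was among the 3 deepest in K562, with 11.6, 9.6 and 7.67 CPM in HSP90i libraries against 39.8, 22.2 and 18.3 CPM in Control (−1.47 ± 0.30, adjusted p = 0.0186). MEF libraries held 3.29, 2.32 and 3.92 CPM in HSP90i and 23.03, 20.7 and 22.7 CPM in Control (−2.79 ± 0.14), and HPC-7 libraries 5.45, 11.3 and 4.93 CPM in HSP90i and 28.8, 25.7 and 28.2 CPM in Control (−1.96 ± 0.24). The groups did not overlap in any line. In K562 the value was −1.07 without Control library 1, and the call was lost without HSP90i library 1, 2 or 3 (adjusted p at most 0.103). In HPC-7 it was −2.41 without HSP90i library 2. Besides those already named, the K562 calls were NOP16 (−0.99) and NOP2 (−0.98), both of the 60S branch, and BYSL (−0.92), RRP9 (−0.90), MYBBP1A (−0.82), MRTO4 (−0.62) and NOLC1 (−0.59). Each of the 13 was also called lower in both mouse lines.

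The responses of the mouse lines were compared directly in 1 fit to the 12 mouse libraries, through the line-by-condition interaction, given as HPC-7 minus MEF. Of the members, 6 were called positive and 15 negative, against 17.8% positive and 25.4% negative of 13720 genes tested. The median over the members was −0.11, the same as the median over all genes (−0.11), which other scalings moved to 0.012 (RLE factors) and 0.055 (genes that pass the filter in each line alone). Values are therefore read against that shift, and of all calls 41.2% were positive with TMM, 52.7% with RLE factors and 57.2% with the stricter filter. The members' counts became 11 positive with RLE factors, and 13 positive and 9 negative with the stricter filter.

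Of the 21 calls, 9 held under every alternative and with every library left out. Noc2l, Heatr1, Rrs1 and Wdr12 fell less in HPC-7, and Nop10, Ddx56 and Polr1a fell further there. The others were Imp3, called lower in HPC-7 and not called in MEF, and Polr1c, which fell in HPC-7 and rose in MEF. Polr1c differed by −1.31 ± 0.12 (adjusted p = 1.03e-06), Nop10 by −1.54 ± 0.20 (adjusted p = 2.78e-05) and Imp3 by −0.76 ± 0.12 (adjusted p = 0.000184). On the other side, Noc2l differed by 0.65 ± 0.12 (adjusted p = 0.000563), Heatr1 by 0.52 ± 0.12 (adjusted p = 0.0029) and Rrs1 by 0.55 ± 0.15 (adjusted p = 0.00673). Noc2l, a factor of 60S transport in the nucleus, had 115, 134 and 103 CPM in HPC-7 HSP90i libraries against 205, 204 and 205 CPM in Control, and 51.9, 46.9 and 48.4 CPM in MEF HSP90i libraries against 143, 143 and 151 CPM in Control. Its groups did not overlap in either line. The remaining 31 members were not called, which does not show that their responses were equal, and dose and line cannot be told apart in any of these differences.

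**Figure D4:**
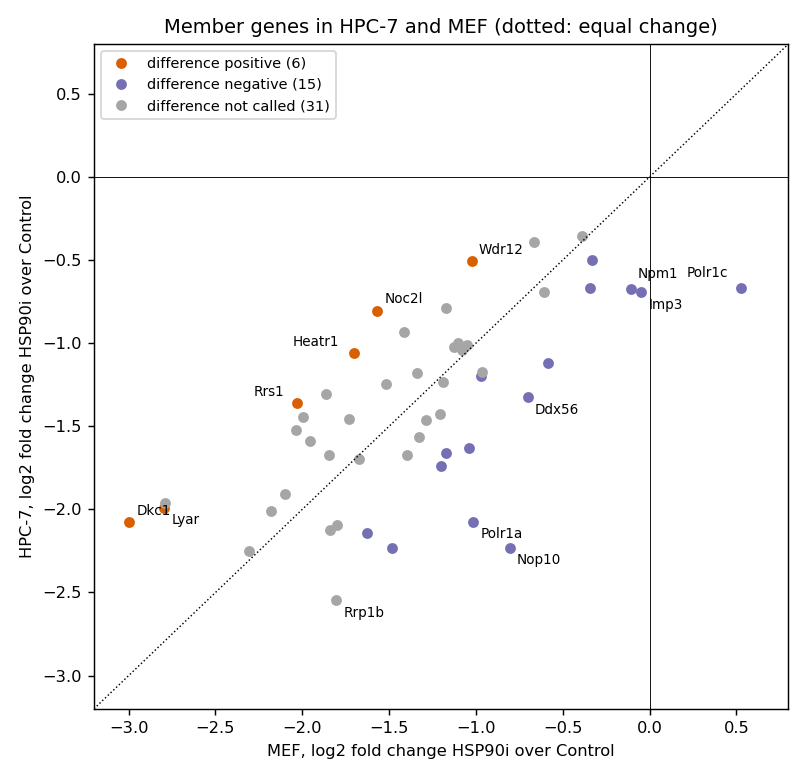
Log2 fold change of HSP90i over Control of each member in HPC-7 (y axis) and MEF (x axis), coloured by the test of the difference, with equal change as the dotted line. Polr1c stands alone to the right of 0 on the MEF axis, and Nop10 and Polr1a lie below the dotted line.

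Over the 52 genes the log2 fold changes of HPC-7 and MEF had a Pearson correlation of 0.67 (Spearman 0.657), against 0.553 over 10356 genes tested in both. K562 and MEF had 0.287 (Spearman 0.242; 0.164 over 9034 genes), and K562 and HPC-7 had 0.116 (Spearman 0.0704; 0.122 over 8659 genes). These are correlations across genes, which are not replicates, and are descriptions only.

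Genes of the same pathway outside the 52 were taken from lists by role. The split into 40S and 60S lists is approximate, as some genes on each serve the other branch. The counts of every list below are to be read beside the shares over all genes tested. In K562, 5.97% were called lower and 5.11% higher, in MEF 38.2% and 35.1%, and in HPC-7 36.6% and 36.5%. Other 40S factors were called lower for 8 of 40 in K562 (1 higher), 37 of 40 in MEF (1 higher) and 36 of 40 in HPC-7 (1 higher), with medians of −0.20, −0.76 and −0.68. PNO1 and PWP2 had the smallest p in K562 (−1.04 ± 0.15 and −0.95 ± 0.14). Other 60S factors were called lower for 10 of 50 in K562 (0 higher), 38 of 49 in MEF (3 higher) and 39 of 49 in HPC-7 (2 higher), with medians of −0.18, −0.54 and −0.55. CCDC86 had 14.6, 13.7 and 13.1 CPM in K562 HSP90i libraries against 55.7, 41.3 and 42.5 CPM in Control (−1.75 ± 0.16), a deeper change than any member in that line. Pprc1 was counted on this list but encodes a transcriptional coactivator and not a 60S processing factor. It had the deepest value of the list in MEF, with 25.3, 26.5 and 22.3 CPM in HSP90i libraries against 162, 175 and 165 CPM in Control (−2.76 ± 0.071). Both outside lists had shallower medians than the 52 in every line. The members and lists were chosen with earlier results of these data known, and the difference was not tested.

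The rest of the RNA polymerase I machinery, 16 genes including subunits shared with other polymerases, gave 1 lower and 0 higher in K562, 8 and 2 in MEF, and 11 and 3 in HPC-7. Their medians on the log2 scale were −0.085 (K562), −0.36 (MEF) and −0.42 (HPC-7). CD3EAP, a subunit that pairs with POLR1E, was called lower in K562, with 6.35, 7.3 and 7.89 CPM in HSP90i libraries against 11.9, 16.1 and 17.7 CPM in Control (−1.08 ± 0.20). UBTF, the factor that keeps ribosomal DNA open, had 80.2, 76.2 and 76.5 CPM in MEF HSP90i libraries against 245, 239 and 252 CPM in Control (−1.66 ± 0.047), and was also lower in HPC-7 (−0.76 ± 0.076). Ttf1, the termination factor, had 71.1, 67.1 and 74.3 CPM in HPC-7 HSP90i libraries against 42.4, 40.9 and 38.6 CPM in Control, and was called higher (0.80 ± 0.078).

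RNA polymerase III's own 11 subunits were mixed, with 1 lower and 0 higher in K562, 3 and 2 in MEF, and 5 and 3 in HPC-7. Polr3g had 3.09, 3.71 and 2.76 CPM in MEF HSP90i libraries against 18.98, 19.2 and 14.2 CPM in Control (−2.47 ± 0.16). RNA polymerase II's own 7 subunits gave 0 calls in K562 by edgeR, 4 lower and 1 higher in MEF, and 6 lower and 0 higher in HPC-7. The other K562 counts for them were 0 lower and 0 higher at an unadjusted p under 0.05, 0 lower and 0 higher in DESeq2, and 0 lower and 1 higher in limma-voom. The exosome, which trims the ribosomal RNA precursors, gave 1 lower of 16 in K562 (EXOSC2, −0.59 ± 0.13), 11 lower and 1 higher of 15 in MEF, and 12 lower and 1 higher of 15 in HPC-7. Factors that assemble snoRNPs were not called in K562 (0 of 11 by edgeR), and were lower for 9 of 10 in MEF (1 higher) and 10 of 10 in HPC-7. The other K562 counts were 1 lower and 0 higher at an unadjusted p under 0.05, 0 lower and 0 higher in DESeq2, and 1 lower and 0 higher in limma-voom. Tcof1, the treacle gene, was counted on this list, though treacle acts in transcription by RNA polymerase I. It had 34.7, 34.1 and 36.9 CPM in MEF HSP90i libraries against 136, 147 and 149 CPM in Control (−2.03 ± 0.059). That was the deepest value of the list in MEF, where the median was −0.77.

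The ribosomal protein genes, whose products the pathway assembles, were rarely called lower. Of 78 tested in K562, edgeR called 0. Other counts there were 0 lower and 0 higher at an unadjusted p under 0.05, 0 lower and 0 higher in DESeq2, and 0 lower and 24 higher in limma-voom. In MEF 1 of 77 was called lower and 40 higher, and in HPC-7 9 lower and 17 higher. Median log2 fold changes were −0.077, 0.14 and 0.076. Rps2, with the lowest value of the list in HPC-7, had 609, 596 and 575 CPM in HSP90i libraries there against 987, 1076 and 1159 CPM in Control (−0.86 ± 0.078). These genes have many processed pseudogenes that could share reads, and the difference between them and the members was not tested.

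**Figure D5:**
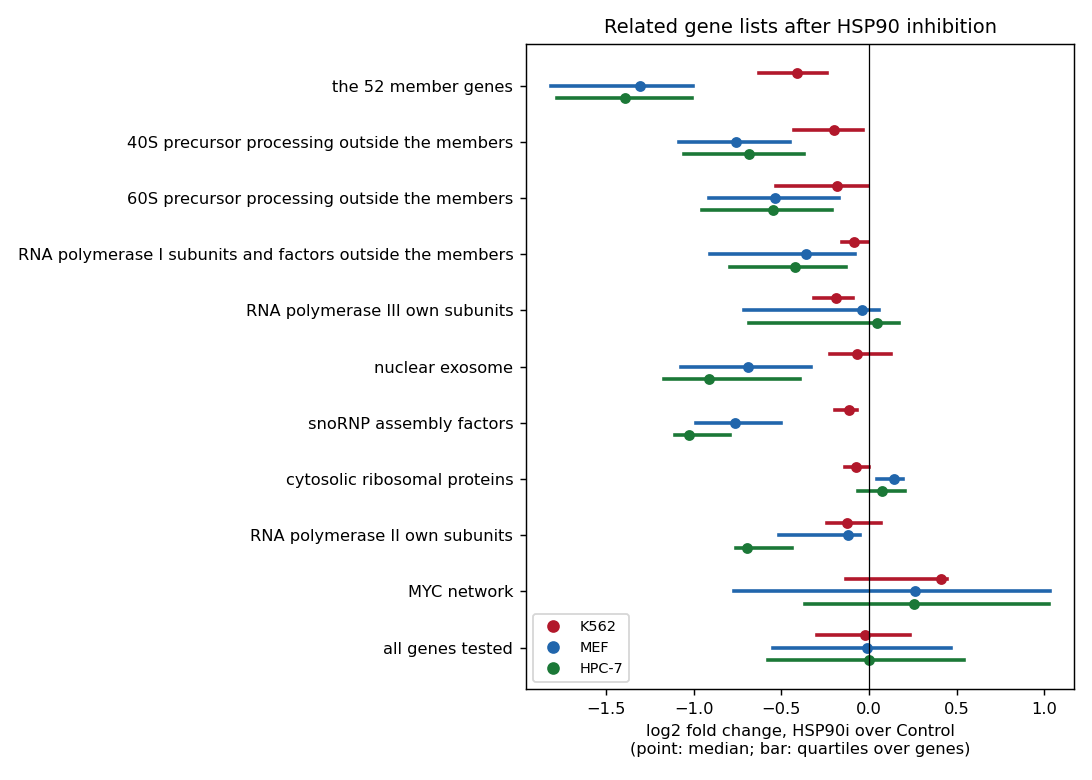
Median (points) and quartiles (bars) of the log2 fold change of HSP90i over Control for the 52 members, 9 related gene lists and all genes tested, in K562 (red), MEF (blue) and HPC-7 (green). The members' medians of −0.41, −1.31 and −1.39 lie below those of every other list in the same line, and the ribosomal protein genes lie near 0. The members and lists were chosen with earlier results of these data known.

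Among genes outside the 52, those whose log2 CPM deviations from the Control mean were most like the mean of the members over all 18 libraries were SUV39H1 and EXOSC2 (Pearson correlation 0.995 for both), PPRC1 (0.994), DCTPP1 (0.991) and BCCIP (0.991). The members themselves had a median of 0.948, with a lowest value of 0.0732, and all 8322 genes tested in the 3 lines a median of 0.13. SUV39H1 encodes a histone methyltransferase and DCTPP1 a nucleotide pyrophosphatase, while EXOSC2, PPRC1 and BCCIP also stood on the lists above. The libraries fall into treated and Control groups, so these correlations describe the size of the response in each line and carry no test.

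MYC, whose protein activates many of these genes, was called lower in every line. In K562 it had 93.7, 86.9 and 99.5 CPM in HSP90i libraries against 209, 268 and 277 CPM in Control (−1.43 ± 0.15). In MEF it had 11.3, 12.9 and 11.4 CPM in HSP90i libraries against 78.01, 81.5 and 80.1 CPM in Control (−2.76 ± 0.068). HPC-7 libraries held 19.6, 62.6 and 16.5 CPM of Myc in HSP90i and 233, 244 and 244 CPM in Control (−2.89 ± 0.40). HSP90i library 2 of HPC-7, the highest treated library for 48 of 52 members, was also the highest for Myc, and without it the value of Myc was −3.73. Its Hspa8 level of 3838 CPM lay beside 3897 and 4175 CPM in the other treated libraries. In K562, Control library 1 was the lowest Control library for MYC, but the highest for 34 of 52 members and the lowest for 16. The part of MYC in the members' levels was not tested in any line. Of the MYC network list, 1 gene was lower and 2 higher of 10 in K562, 5 and 5 of 11 in MEF, and 4 and 6 of 11 in HPC-7. The MYC antagonist MXD1 had 169.9, 176 and 187 CPM in K562 HSP90i libraries against 56.5, 76.9 and 91.3 CPM in Control, and was called higher (1.25 ± 0.18).

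The sequence CACGTG, the E-box bound by MYC and its partners among other factors, was looked for in RefSeq mouse promoters (GRCm38.p6), taken as 250 bases before to 50 after each gene start; the word is its own reverse complement, so a single search reads both strands. Promoters were at hand for 47 of the 52 members. The word was in 10 of these 47 genes (21.3%), against 8.09% of 27025 genes with a promoter and 11.7% of the 9797 that were tested in a mouse line. In Mybbp1a, Pes1, Trmt61a, Tsr1, Utp20 and Wdr43 the word lay only after the start, between bases 3 and 41. The word of Rpf2 lay before 1 start of the gene and after another (base 35). The windows of the 4 members with the word before a start are shown with it in capitals. After them come the 60 bases before the start of Dkc1 and Polr1c, the lowest and highest members of MEF, whose 300 bases lack it.
Imp4: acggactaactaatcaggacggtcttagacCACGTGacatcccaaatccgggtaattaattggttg
Nop2: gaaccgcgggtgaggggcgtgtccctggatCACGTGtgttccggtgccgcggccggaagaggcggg
Rpf2: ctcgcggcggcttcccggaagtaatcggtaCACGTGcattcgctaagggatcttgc
Utp18: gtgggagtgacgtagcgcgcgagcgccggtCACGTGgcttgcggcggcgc
Dkc1: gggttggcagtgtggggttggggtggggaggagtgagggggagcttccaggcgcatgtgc
Polr1c: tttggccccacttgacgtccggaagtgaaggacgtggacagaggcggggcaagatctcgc
These windows lie at chr1:34439678-34439743 (+ strand) for Imp4, chr6:125131793-125131858 (+ strand) for Nop2, chr10:40246980-40247035 (- strand) for Rpf2, chr11:93885767-93885816 (- strand) for Utp18, chrX:75095794-75095853 (+ strand) for Dkc1 and chr17:46248046-46248105 (- strand) for Polr1c. Members with the word had a median log2 fold change of −1.37 in HPC-7 and −1.34 in MEF (10 genes), and those without it −1.33 in both lines (37 genes). This difference was not tested. It was found by letters alone, and neither its presence nor its absence shows what binds there. Member promoters had a median GC content of 58% and 22 CpG, beside 61% and 21 in the promoters of tested genes and 52.8% and 7 in all promoters, and the part of base composition in the count was not tested.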

How the data were processed

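The 18 RNA-seq libraries, 3 HSP90i and 3 Control per line, were grouped by sample title. The columns headed DMSO were assigned to the Control titles with the same number. The tables deposited by the authors hold raw gene counts, whole numbers with no normalization. Per the submitters' processing notes, the series used TopHat2 2.0.13, Bowtie2, featureCounts, Trim Galore, Picard, MACS2 and DESeq2, and names mm10, GRCm38, hg38 and GRCh37 as builds, without their roles. Whether counting used strand is not stated, so overlapping and antisense genes could share reads. Nothing in the labels says that replicates came from different cultures; p-values then reflect only the spread among these libraries, which may be technical. The labels give no batch or date.

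Genes were filtered with filterByExpr and tested with edgeR 4.0.16 (R 4.3.3; quasi-likelihood, TMM, Benjamini-Hochberg adjustment, threshold 0.05) within each line, and for the mouse lines as the interaction of line and condition. The common biological variation coefficient was 0.172 (K562), 0.0835 (MEF) and 0.0900 (HPC-7). SE was the log2 fold change divided by the root of F. BOP1 and DKC1 had a second K562 row without counts, and the row with counts was used. The procedures were tested on simulated data in which far fewer genes changed than were called in any line here. That test does not cover changes as widespread as these. Without a human annotation at hand, the planned overlap of the HSP90 ChIP-seq peaks with member gene starts was not run, and the peak list was not used.

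The members and lists were chosen with earlier results of these data known. Values in every library were given for 13 members chosen for their roles, for the 3 lowest and 3 highest members of each line, and for the 3 called members with the smallest p of each sign of the interaction. Outside the members, MYC, HSPA8, up to 2 genes per list and line with the smallest p, and the 5 most alike genes were named. POLR1E and Brix1 were shown by library after their values were seen. Alternatives were other scalings and filters, DESeq2 1.42.0, limma-voom (limma 3.58.1) with sample quality weights, a replicate block, a joint mouse fit and each library left out. Plots used matplotlib 3.10.9 under Python 3.11.15.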

Additional observations from a re-analysis of the deposited data

Results flagged for a closer look

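The response to HSP90i differed between HPC-7 and MEF for 21 members by the test of the interaction (HPC-7 minus MEF, edgeR, adjusted p under 0.05). Of all 13720 genes tested, 17.8% were called positive and 25.4% negative, so such a call is not particular to the members. Positive values belonged to Dkc1 (0.80), Lyar (0.68), Noc2l (0.65), Rrs1 (0.55), Heatr1 (0.52) and Wdr12 (0.40). Negative values belonged to Nop10 (−1.54), Polr1c (−1.31), Polr1a (−1.18), Bysl (−0.87), Imp3 (−0.76), Ddx56 (−0.74), Mrto4 (−0.70), Npm1 (−0.69), Fbl (−0.66), Brix1 (−0.66), Nhp2 (−0.63), Bop1 (−0.61), Nop14 (−0.45), Wdr74 (−0.34) and Imp4 (−0.28). Imp3, Npm1 and Polr1c were the 3 members not called lower in MEF. The median over all genes was −0.11 and is part of each value. Of the calls, Imp4, Nhp2 and Brix1 held in 1, 2 and 2 of the 8 other settings, Wdr74 in 3, Bop1 in 5 and Npm1 in 7, and the other 15 in all 8. Dose and line cannot be told apart in these differences, and HSP90i library 2 of HPC-7 enters all of them: without it, 25 members were called negative and 5 positive. Dixon's test for single outlying libraries was not run on these groups of 3.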

How the results depend on the processing

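In HPC-7 all 52 members were called lower under every alternative run and with each library left out. In MEF 48 of the 49 lower calls and the higher call of Polr1c also held throughout (Brix1 excepted), and its member median of −1.31 was −1.28 with RLE factors, library size alone or DESeq2, −1.20 with upper quartile factors, −1.31 with no filter and −1.19 in the joint mouse fit. With each library left out, the medians ran from −1.31 to −1.29 in MEF, −1.55 to −1.28 in HPC-7 and −0.44 to −0.30 in K562. In K562 the 13 lower calls became 20 with upper quartile factors or DESeq2 and 36 with limma-voom, and 2 to 30 with a library left out. The K562 median of −0.41 was −0.51 with library size alone, −0.49 with upper quartile factors and −0.30 with limma-voom. Library size alone moved the K562 calls over all genes to 26.7% higher (435 higher and 1195 lower), against 46.1% with TMM (688 and 803), and upper quartile factors to 35.3%. DDX21 in K562 turned to −0.25 without Control library 1 and ran up to 0.26 with other libraries left out. For HPC-7 minus MEF, 6 positive and 15 negative calls became 11 positive with RLE factors, 12 positive with DESeq2, and 13 positive and 9 negative with genes that pass the filter in each line alone; the member median of −0.11 turned to 0.017, 0.016 and 0.075. With a library left out, it ran from −0.31 to 0.12, with 5 to 11 positive and 5 to 25 negative calls. Without HPC-7 Control library 1, 2 or 3 it turned to 0.12, 0.087 and 0.087, as did the median of all genes (0.11, 0.098 and 0.096). Nop56 turned to −0.36 without HPC-7 HSP90i library 2 and ran up to 0.27. The cause was not tested.

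The main fits did not treat replicate numbers as pairs. In K562, same-numbered HSP90i and Control libraries had correlations of their deviations of 0.281, 0.0417 and 0.451. Differently numbered ones ran from −0.387 to 0.169 there, so pairing in K562 is left undecided. In MEF the same-numbered values were 0.268, −0.223 and −0.245, and the others ran from −0.31 to 0.383. In HPC-7 they were 0.0064, 0.0235 and −0.0898, and the others ran from −0.116 to 0.104. With a replicate block the members called lower were 15 in K562 (median −0.38), 48 in MEF (−1.31) and 52 in HPC-7 (−1.41), and 6 positive and 12 negative for the interaction.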
